A study of Mus musculus with 24 samples.

Results

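A group of 7 genes that encode peptides made by injured sensory neurons was followed in sorted dorsal root ganglion (DRG) neurons: galanin (Gal), neuropeptide Y (Npy), vasoactive intestinal peptide (Vip), pituitary adenylate cyclase-activating polypeptide (Adcyap1), urocortin (Ucn), cholecystokinin (Cck) and cocaine- and amphetamine-regulated transcript (Cartpt). These 7 of the 47643 genes listed in the count files were chosen by name, as neuropeptides known from nerve injury, at a time when the genotype differences in these libraries had already been seen. Their levels by genotype are therefore given as a description. Where a member is said below to pass or to be called by genotype, this is not read as a test of that member.

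RNA came from L4 DRG of the side away from a sciatic nerve that had been crushed 3 d before, so no ganglion described here was the injured one. Control mice carried Nav1.8-Cre, 1 floxed and 1 wild-type allele of Tsc2 (Tsc2 flox/+) and a Rosa26-ZsGreen reporter, and Nav-Tsc2 mice carried the same Cre and reporter with Tsc2 flox/null. Controls thus keep 1 copy of Tsc2 in the cells that express Cre, and Nav-Tsc2 mice have no intact copy there and 1 copy in all other cells. Tsc2 encodes tuberin, a brake on the kinase complex mTORC1. The mice were 8 to 9 weeks old, of a mixed C57BL/6 and AJ background, with 4 mice per genotype, 2 male (replicates 1 and 2) and 2 female (replicates 3 and 4). Nav1.8-Cre acts mainly in nociceptors and in some myelinated neurons, and cells were sorted for the green reporter. Each mouse gave 3 technical libraries of 100 sorted cells. The 3 libraries are samples of 1 mouse and not replicates of a genotype, so their counts were summed.

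The 24 libraries held 8339220 to 34228180 counts on genes, and the mice 47959617 to 61290435. Levels are given as normalized CPM, the counts of a gene brought to a common library total by edgeR's TMM method. Tsc2 itself was at 20.9 ± 5.18 CPM in control neurons and 8.87 ± 1.52 CPM in Nav-Tsc2 neurons (SD, n = 4 mice each; log2 fold change -1.24, SE 0.22, edgeR adjusted p = 0.00373). All 8 mice matched their labelled sex. The summed level of 8 sensory neuron markers, among them Scn10a, the gene for Nav1.8, was 13399 to 16574 CPM in control and 14551 to 16874 CPM in Nav-Tsc2 mice.

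Neuropeptides are cut from longer precursors, packed into dense-core vesicles and released to act on G protein-coupled receptors. After axotomy, sensory neurons are known to lower some of the peptides they use at rest, such as substance P and CGRP, and to make others in their place. Galanin and NPY act mostly through inhibitory receptors, VIP and PACAP share receptors that raise cyclic AMP, urocortin binds the receptors of corticotropin-releasing hormone, and cholecystokinin binds CCK-A and CCK-B receptors. Cyclic AMP acts on genes partly through a promoter motif called the cyclic AMP response element (CRE, TGACGTCA), and the injury factors of the AP-1 group bind TGACTCA.

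The promoters of the 4 tested members with the higher mean in Nav-Tsc2 neurons show where these letters stand. Each line gives the 150 bases before the RefSeq transcription start (GRCm38.p6), 5′ to 3′ on the strand of the gene, with a CRE in capitals where there is one. Gal lies on chr19:3414545-3414694 (minus strand), Npy on chr6:49822560-49822709 (plus), Ucn on chr5:31138896-31139045 (minus) and Cartpt on chr13:99900684-99900833 (minus).
Gal: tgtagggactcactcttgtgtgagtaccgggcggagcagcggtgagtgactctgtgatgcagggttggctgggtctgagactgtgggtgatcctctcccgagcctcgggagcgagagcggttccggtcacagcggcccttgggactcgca
Npy: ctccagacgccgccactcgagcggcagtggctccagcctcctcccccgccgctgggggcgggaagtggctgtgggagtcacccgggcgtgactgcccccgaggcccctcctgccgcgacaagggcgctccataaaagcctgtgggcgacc
Ucn: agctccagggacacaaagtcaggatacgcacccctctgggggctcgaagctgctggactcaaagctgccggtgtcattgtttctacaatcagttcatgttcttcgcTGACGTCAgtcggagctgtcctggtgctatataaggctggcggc
Cartpt: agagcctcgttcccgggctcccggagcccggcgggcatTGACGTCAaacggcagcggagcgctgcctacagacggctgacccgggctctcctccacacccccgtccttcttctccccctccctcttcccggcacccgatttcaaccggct
Ucn held 1 CRE, whose first base lay 44 bases before the start, and Cartpt held 1 at 112 bases before the start. Neither motif was found letter for letter in the promoter windows of Gal, Npy, Adcyap1, Cck or Vip, and no member held TGACTCA. Near matches were not counted, such as TGACGTCT before Vip and Adcyap1, which differs from the CRE in its last letter. The windows searched ran from 250 bases before to 50 bases after the start, on both strands. Among all 32851 RefSeq promoters of that length, 1.79% held TGACGTCA and 5.2% held TGACTCA. These matches describe letters only, and no binding was measured.

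Of the 7 members, 5 had enough counts to enter the fit over all 17178 genes. In that fit, 3 of the 7 (Gal, Npy and Ucn) passed the limits of the study (adjusted p below 0.05, together with a log2 fold change beyond 0.5 in either direction) as higher in Nav-Tsc2 neurons, and 0 as lower. Across all genes tested 9.15% were called higher and 8.05% lower. The same 3 genes had all 4 Nav-Tsc2 mice above all 4 control mice, which held for 14.6% of all genes; the opposite order held for 12.3%. Because the genes were chosen with this contrast known, nothing is read from these counts. In libraries made from pooled cells, more peptide-expressing cells and more RNA per expressing cell cannot be told apart.

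**Figure D1:**
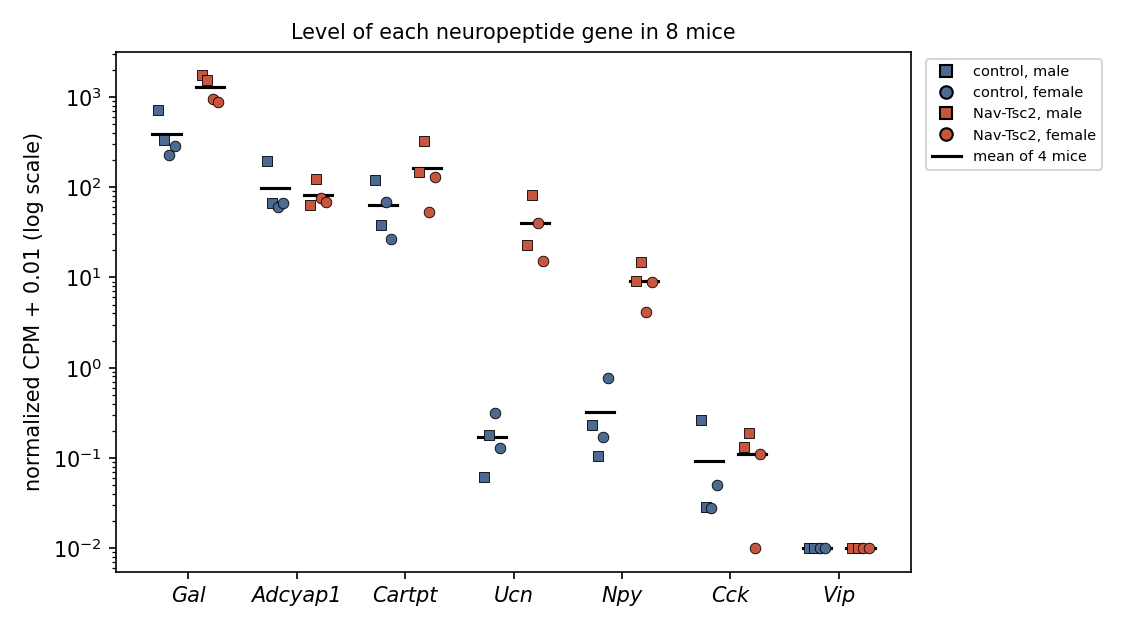
Normalized CPM (with 0.01 added, on a log axis) of each neuropeptide gene in 4 control (blue) and 4 Nav-Tsc2 (red) mice, males as squares and females as circles, with the mean of each genotype as a bar. Gal, Ucn and Npy separated the genotypes, Adcyap1 and Cartpt overlapped, Cck stayed at or under 0.254 CPM and Vip was at 0 throughout.

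Gal, which encodes galanin, was the most abundant member. It lies on chromosome 19 of GRCm38 from 3409915 to 3414544 on the minus strand. Control replicates 1 to 4 were at 721, 332, 228 and 285 CPM, and Nav-Tsc2 replicates 1 to 4 at 1741, 1527, 946 and 873 CPM. The lowest Nav-Tsc2 mouse stood above the highest control mouse. The means were 392 ± 223 and 1272 ± 428 CPM (SD, n = 4 mice each), with a log2 fold change of 1.70 (SE 0.37). When every gene with a count was kept in the fit, Gal did not pass, and 2 rather than 3 members were called higher.

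Ucn, which encodes the CRH-family peptide urocortin, went from close to nothing to a moderate level. It lies on chromosome 5 from 31138063 to 31138829 on the minus strand. Control mice were at 0.0508, 0.170, 0.308 and 0.120 CPM, and Nav-Tsc2 mice at 23.1, 82.4, 40.1 and 15.1 CPM. The genotypes lay far apart, and the Nav-Tsc2 mice also differed widely among themselves. Over 12 libraries of each genotype there were 35 counts in control and 9129 in Nav-Tsc2. The log2 fold change was 7.94 (SE 0.71), and 7.31 without Nav-Tsc2 replicate 2. Ucn was present in every Nav-Tsc2 library, from 11.6 to 101 CPM, whereas no control library exceeded 0.701 CPM.

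Npy encodes neuropeptide Y, which in intact ganglia is typical of sympathetic and not of sensory neurons. It lies on chromosome 6 from 49822710 to 49829507 on the plus strand. Control mice were at 0.220, 0.0947, 0.163 and 0.763 CPM, and Nav-Tsc2 mice at 9.15, 14.6, 4.18 and 8.84 CPM. The genotypes did not overlap, and the log2 fold change was 4.89 (SE 0.69). It was 5.82 without control replicate 4, and 3.90 when single libraries were fitted with mouse as random. Npy was at 0 in none of the 12 Nav-Tsc2 libraries, and 10 of the 12 reached 1 CPM and 4 reached 10 CPM. Within a Nav-Tsc2 mouse the highest library exceeded the lowest by 7.92-fold to 40.0-fold, and in 1 mouse a single library held 94.1% of the summed library levels.

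Both Npy and Ucn entered the fit mainly through the Nav-Tsc2 mice, since the filter's cutoff of 0.180 CPM was reached by 2 control mice for Npy and 1 for Ucn, and by all 4 Nav-Tsc2 mice for each. Among markers of autonomic neurons, Dbh had enough counts to be tested. Dbh, which encodes the enzyme that makes noradrenaline, was at 0 to 0.868 CPM in control and 2.37 to 5.78 CPM in Nav-Tsc2 mice (log2 fold change 2.98, edgeR adjusted p = 0.0537), and DESeq2 called it higher. Chat was at 0 and Hand2 at most 0.0163 CPM in the Nav-Tsc2 mice. The part of such cells in the Npy level was not tested.

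Cartpt, which encodes the CART peptides, had a higher mean in Nav-Tsc2 neurons, but the mice overlapped. It lies on chromosome 13 from 99898489 to 99901091 on the minus strand. Control mice were at 121, 38.4, 68.5 and 26.4 CPM, and Nav-Tsc2 mice at 149, 321, 53.7 and 131 CPM. Nav-Tsc2 replicate 3 fell inside the control range, with control replicates 1 and 3 above it. The log2 fold change was 1.36 (SE 0.57) with all mice and 0.80 without Nav-Tsc2 replicate 2, and Cartpt was not called in either fit.

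Adcyap1, the gene for PACAP, was expressed at rest and had similar levels in most mice. It lies on chromosome 17 from 93199017 to 93206537 on the plus strand. Control mice were at 196, 67.3, 60.6 and 66.6 CPM, and Nav-Tsc2 mice at 63.8, 122, 76.7 and 68.5 CPM. Control replicate 1 stood apart from the other 3 controls, which lay within or just below the range of the Nav-Tsc2 mice. With all mice the log2 fold change came to -0.24 (SE 0.38), and 0.35 without control replicate 1.

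Cck and Vip were at or near the limit of detection. Cck, on chromosome 9 from 121489824 to 121495694, had 15, 1, 1 and 2 counts in the control mice and 6, 10, 0 and 6 in the Nav-Tsc2 mice. No mouse exceeded 0.254 CPM of Cck, and no single library 0.511 CPM. Vip, on chromosome 10 from 5639218 to 5647617, had 0 counts in all 24 libraries, which allows at most 0.0490 to 0.0617 CPM per mouse (3 counts). These limits cover counting error only, since amplified reads without molecular identifiers are not independent molecules.

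Dividing by exon length allows the members to be ranked against each other. Per kilobase of exon, Gal led in Nav-Tsc2 neurons with 1614 ± 543 CPM (SD, n = 4), followed by Cartpt with 128 ± 88.2, Ucn with 79.7 ± 59.6, Adcyap1 with 21.9 ± 7.03 and Npy with 16.3 ± 7.55. Only Gal was separated from the next gene, as the ranges over mice of each later pair of neighbours overlapped. In control neurons the order was Gal with 497 ± 284 CPM per kilobase, Cartpt with 49.8 ± 33.2, Adcyap1 with 25.8 ± 17.3, Npy with 0.548 ± 0.541 and Ucn with 0.322 ± 0.215. There Gal was again separate, Cartpt and Adcyap1 overlapped, both lay above Npy, and Npy and Ucn overlapped. Ucn thus ranked above Adcyap1 by its mean in Nav-Tsc2 neurons and below it in control neurons.

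The 100-cell libraries of a mouse were compared to see how evenly each peptide was spread. On the log2(CPM + 1) scale, the SD between libraries of a mouse was 1.32 for Npy, 1.14 for Adcyap1, 1.13 for Cartpt, 0.92 for Gal and 0.55 for Ucn, against a median of 0.36 over the 10174 genes with a mean of at least 5 CPM. For Npy and Ucn this value includes control libraries near 0, where the added 1 sets the spread to almost nothing. In the 12 Nav-Tsc2 libraries alone, a comparison added after the data were seen, the SD was 1.86 for Npy, 1.23 for Cartpt, 1.02 for Gal, 0.86 for Adcyap1 and 0.76 for Ucn, with a median of 0.27 over the same genes. Neither median was matched to the level of a member, although the SD on this scale depends on level. A spread particular to these peptides is therefore not read from it. The SD between mice of a genotype was 0.74 for Ucn, 0.68 for Gal, 0.73 for Adcyap1, 0.93 for Cartpt and 0.32 for Npy, with a median of 0.23. It pools both genotypes, so for Npy and Ucn it is lowered by the control mice near 0. The Nav-Tsc2 mice alone ran from 4.18 to 14.6 CPM for Npy and from 15.1 to 82.4 CPM for Ucn. For Gal, Nav-Tsc2 libraries ranged from 406 to 3360 CPM and control libraries from 57.0 to 1012 CPM, so single libraries overlapped where the mice did not.

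**Figure D2:**
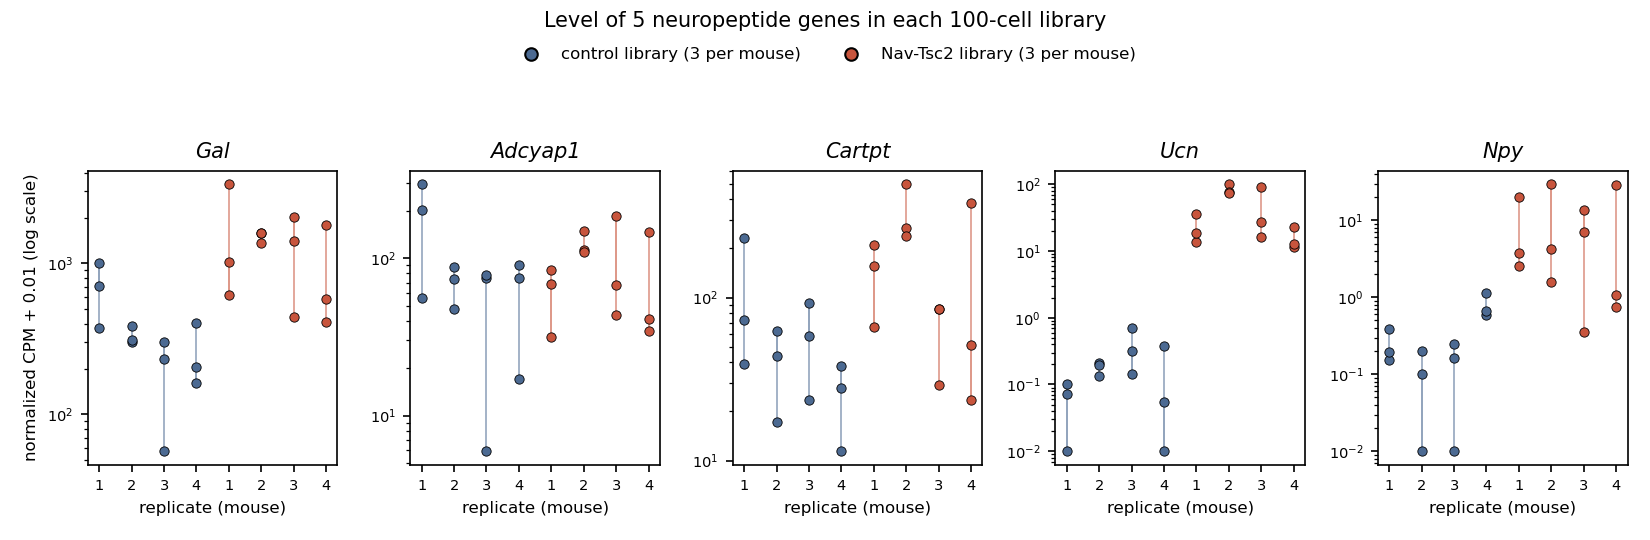
Normalized CPM (with 0.01 added, on a log axis) of 5 neuropeptide genes in each library of 100 cells, 3 per mouse joined by a line, for replicates 1 to 4 of control (blue) and Nav-Tsc2 (red). Nav-Tsc2 libraries of Ucn lay between 11.6 and 101 CPM, while those of Npy spanned 0.344 to 29.7 CPM.

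With each mouse's mean removed, the log2(CPM + 1) values of the members over the 24 libraries gave Pearson's r of 0.71 for Gal and Adcyap1, 0.53 for Gal and Cartpt, 0.53 for Adcyap1 and Cartpt, 0.19 for Gal and Npy and 0.015 for Gal and Ucn. The points share libraries, depth and mice, and these values are a description. Pairs with Npy or Ucn include the 12 control libraries in which these genes were near 0. In the 12 Nav-Tsc2 libraries alone r was 0.66 for Gal and Adcyap1, 0.79 for Gal and Cartpt, 0.72 for Adcyap1 and Cartpt, 0.24 for Gal and Npy and 0.16 for Gal and Ucn. Libraries rich in galanin thus tended to be rich in PACAP mRNA. Over all 24 libraries the genes most like Gal were 1700001L19Rik (r = 0.90), Litaf (0.80) and Npy1r (0.79), and those most like Adcyap1 were Itga3 (0.86), Nxn (0.85) and Nedd1 (0.85). Cartpt was closest to Dner (0.78), Tppp (0.76) and Asf1a (0.73), Npy to Commd6 (0.76), Sprr1a (0.72) and Smad2 (0.70), and Ucn to Fam168a (0.73), Dolpp1 (0.69) and Dsp (0.68). These were picked as the highest values among 10174 genes, so a high r is partly a result of the choice. By Spearman's rho Ucn was closest to other genes, Tstd2 (0.67), Cgrrf1 (0.65) and Ntpcr (0.64). Npy was then closest to Rhof (0.76), Commd6 (0.73) and Rps20 (0.73).

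Receptors of the members were then compared by genotype with edgeR's quasi-likelihood test. Of 15 receptor genes, 14 had a row of their own and 9 were tested, of which 2 fell, 1 rose and 6 were not called in Nav-Tsc2 neurons. Their median log2 fold change was -1.34, against 0.01 for all genes tested, but it was -0.56 without control replicate 4 and -0.61 with a replicate block.

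Cckbr, the CCK-B (gastrin) receptor known to appear in DRG neurons after axotomy, rose. It lies on chromosome 7 from 105425731 to 105470898. Control mice were at 0.339, 0.341, 0.452 and 0.442 CPM, and Nav-Tsc2 mice at 99.0, 87.3, 79.0 and 94.1 CPM, a log2 fold change of 7.83 (SE 0.16, edgeR adjusted p = 9.71e-09). All 12 Nav-Tsc2 libraries lay between 69.7 and 117 CPM and all 12 control libraries between 0.125 and 0.745 CPM. Its peptide Cck was thus near 0 where its receptor was high. Cckar, the CCK-A receptor, was at 20.9, 0.0379, 15.8 and 13.5 CPM in control and 76.8, 30.9, 6.37 and 41.6 CPM in Nav-Tsc2 mice and did not pass (log2 fold change 1.63, SE 1.07, edgeR adjusted p = 0.331).

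Npy2r, the Y2 receptor that on sensory terminals limits transmitter release, fell. Control mice were at 56.6, 100, 75.0 and 111 CPM, and Nav-Tsc2 mice at 9.53, 5.86, 9.37 and 8.33 CPM, with no overlap (log2 fold change -3.37, SE 0.24, edgeR adjusted p = 3.79e-05). Npy and Npy2r therefore differed by genotype in opposite directions. Npy1r, the Y1 receptor, was at 162 CPM in control replicate 1, 19.5 to 26.5 CPM in the other 3 controls and 72.6, 48.3, 25.5 and 46.0 CPM in Nav-Tsc2 mice. The genotype difference of -0.27 on the log2 scale (SE 0.66, edgeR adjusted p = 0.822) did not pass. This value rested on control replicate 1, without which the log2 fold change was 1.04 (edgeR adjusted p = 0.0461).

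The receptors for galanin were scarce. Galr1 was at 6.98 ± 5.21 CPM in control and 0.660 ± 0.794 CPM in Nav-Tsc2 neurons (SD, n = 4) and did not pass (log2 fold change -3.40, SE 1.15, edgeR adjusted p = 0.0629). It passed with DESeq2 (adjusted p = 0.0298), sex as a covariate (0.0142) or a replicate block (0.0484), and without control replicate 3 (0.0281) or Nav-Tsc2 replicate 2 (0.0465). Galr2 fell from 2.15 ± 1.16 to 0.210 ± 0.196 CPM (SD, n = 4; log2 fold change -3.34, SE 0.78, edgeR adjusted p = 0.0144), a call lost without Nav-Tsc2 replicate 1 (adjusted p = 0.0515). Without Nav-Tsc2 replicate 2 its log2 fold change was -4.20. That mouse (0.495 CPM) was the only Nav-Tsc2 mouse over the filter's cutoff of 0.180 CPM for Galr2. Galr2 thus entered the fit mainly through the control mice and could hardly have been called higher. For urocortin, Crhr1 and Crhr2 had means of at most 1.47 CPM in both genotypes, and neither was called. The PACAP receptor gene Adcyap1r1 and the VIP receptor genes Vipr1 and Vipr2 stayed at or under 0.984 CPM in every mouse and were not tested.

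**Figure D3:**
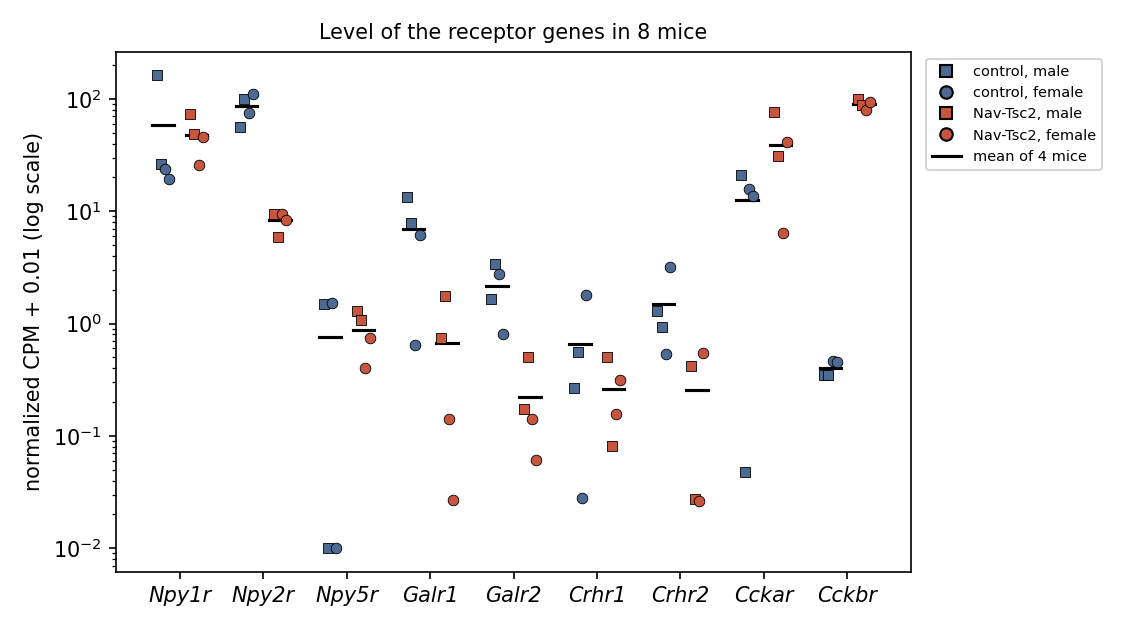
Normalized CPM (with 0.01 added, on a log axis) of the 9 receptor genes tested, in control (blue) and Nav-Tsc2 (red) mice, males as squares and females as circles, with the mean of each genotype as a bar. Cckbr stood at 79.0 to 99.0 CPM in Nav-Tsc2 mice against 0.339 to 0.452 CPM in control mice, and Npy2r fell to 5.86 to 9.53 CPM.

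Among 12 relatives of the members, 3 were tested and 1 rose. Crh encodes corticotropin-releasing hormone and belongs to the family of Ucn. It was at 0 to 0.0904 CPM in control and 0.926, 5.43, 0.294 and 0.542 CPM in Nav-Tsc2 mice (log2 fold change 5.52, SE 1.27, edgeR adjusted p = 0.0132). Every control mouse was under the filter's cutoff of 0.180 CPM. Crh thus entered the fit only through the Nav-Tsc2 mice and could hardly have been called lower. Without Nav-Tsc2 replicate 2 it did not pass (log2 fold change 3.90, adjusted p = 0.0556), and without control replicate 3 the log2 fold change was 6.41. Ucn2 and Ucn3, the other urocortins, were at most 0.278 CPM in every mouse, so Ucn was the one urocortin that Nav-Tsc2 neurons held above 1 CPM.

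Other neuropeptides of sensory neurons moved in both directions. Of 15 listed, 12 were tested, 4 fell, 3 rose and 5 were not called, with a median log2 fold change of -0.61, which was -0.24 without control replicate 1. Sst, which encodes somatostatin, fell from 14.8, 139, 79.2 and 59.7 CPM to 0.0206, 0.248, 0.180 and 0.0846 CPM (log2 fold change -9.04, SE 0.83, edgeR adjusted p = 0.000119). With Nav-Tsc2 mice around or under the filter's cutoff of 0.180 CPM, Sst entered the fit mainly through the control mice. It could hardly have been called higher. Calca, which encodes the alpha form of CGRP, fell from 10162 ± 4518 to 2557 ± 616 CPM (SD, n = 4; log2 fold change -1.99, SE 0.31, edgeR adjusted p = 0.00190). Calcb, the gene of the beta form, did not reach the fold limit (log2 fold change -0.48, SE 0.11, edgeR adjusted p = 0.0149), but was called in 5 alternatives. Tac1, the substance P gene, was not called, at 1705 ± 1136 and 1441 ± 550 CPM (SD, n = 4; log2 fold change -0.24, SE 0.45, edgeR adjusted p = 0.761). Nts, the neurotensin gene, rose from 15.7, 96.7, 83.8 and 93.9 CPM to 1567, 1194, 3106 and 2182 CPM (log2 fold change 4.79, SE 0.57, edgeR adjusted p = 0.000476).

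Smaller or less firm changes were seen in the rest of that list. Nmb, the neuromedin B gene, fell from 263 ± 19.3 to 122 ± 23.4 CPM (SD, n = 4; edgeR adjusted p = 0.000431). Nmu, the neuromedin U gene, rose from 0.136 ± 0.151 to 1.48 ± 0.453 CPM (SD, n = 4; edgeR adjusted p = 0.0184, and 0.0554 without Nav-Tsc2 replicate 2). Its log2 fold change was 3.41, and 4.51 without control replicate 1. Nmu entered the fit mainly through the Nav-Tsc2 mice, since control replicate 1 (0.356 CPM) was the only control over the filter's cutoff of 0.180 CPM. Penk, the proenkephalin gene, was at 15.5 to 136 CPM in control and 126 to 1262 CPM in Nav-Tsc2 mice (log2 fold change 3.06, SE 0.93, edgeR adjusted p = 0.0472). Its call was lost in 8 of 16 alternatives, with a log2 fold change of 1.86 without Nav-Tsc2 replicate 1 and a call at 3.99 without control replicate 2. Nppb, which encodes a natriuretic peptide of itch neurons, was at 6.73 to 89.9 CPM in control and 0.195 to 11.1 CPM in Nav-Tsc2 mice (edgeR adjusted p = 0.0403). Leaving out any of control replicates 2 to 4, or Nav-Tsc2 replicate 1 or 4, ended this call (edgeR adjusted p between 0.0612 and 0.0899), as did a replicate block (0.0916). The log2 fold change was -3.55, and -4.40 without Nav-Tsc2 replicate 3.

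The machinery that makes active peptides from precursors was detected in every mouse, and 1 of its 6 genes fell while 2 rose. Cpe, the carboxypeptidase that trims cleaved peptides, rose from 740 ± 207 to 1318 ± 155 CPM (SD, n = 4; log2 fold change 0.83, SE 0.18, edgeR adjusted p = 0.0103). Pcsk1n, which encodes the proSAAS inhibitor of prohormone convertase 1, rose from 22.9 ± 4.64 to 50.9 ± 14.7 CPM (SD, n = 4; log2 fold change 1.15, SE 0.21, edgeR adjusted p = 0.00430). Scg5, the chaperone of prohormone convertase 2, fell from 313 ± 43.5 to 149 ± 15.0 CPM (SD, n = 4; log2 fold change -1.07, SE 0.12, edgeR adjusted p = 0.000293). The convertases Pcsk1 and Pcsk2 and the amidating enzyme Pam were not called, at log2 fold changes of -0.46, 0.05 and -0.53.

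Genes that mark axotomized neurons were listed to see whether other injury genes stood with the peptides. Of 10 such genes, 9 were tested, 7 rose and 0 fell, with a median log2 fold change of 2.67. No gene of the list was lower at an unadjusted edgeR p under 0.05 (0 genes) or by DESeq2 (0 genes). Atf3, a transcription factor induced by nerve injury, rose from 76.0 ± 23.2 to 434 ± 32.6 CPM (SD, n = 4; log2 fold change 2.51, SE 0.22, edgeR adjusted p = 8.84e-05). Log2 fold changes of the other genes with the smallest p values were 2.46 for Sox11, 5.70 for Sprr1a, 7.32 for Ecel1, 2.67 for Flrt3 and 2.71 for Gadd45a. Jun, an AP-1 subunit, and Gap43, a growth cone protein, were not called. This list holds genes whose change in these libraries was known when it was drawn up, so it is not independent evidence of a direction.

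**Figure D4:**
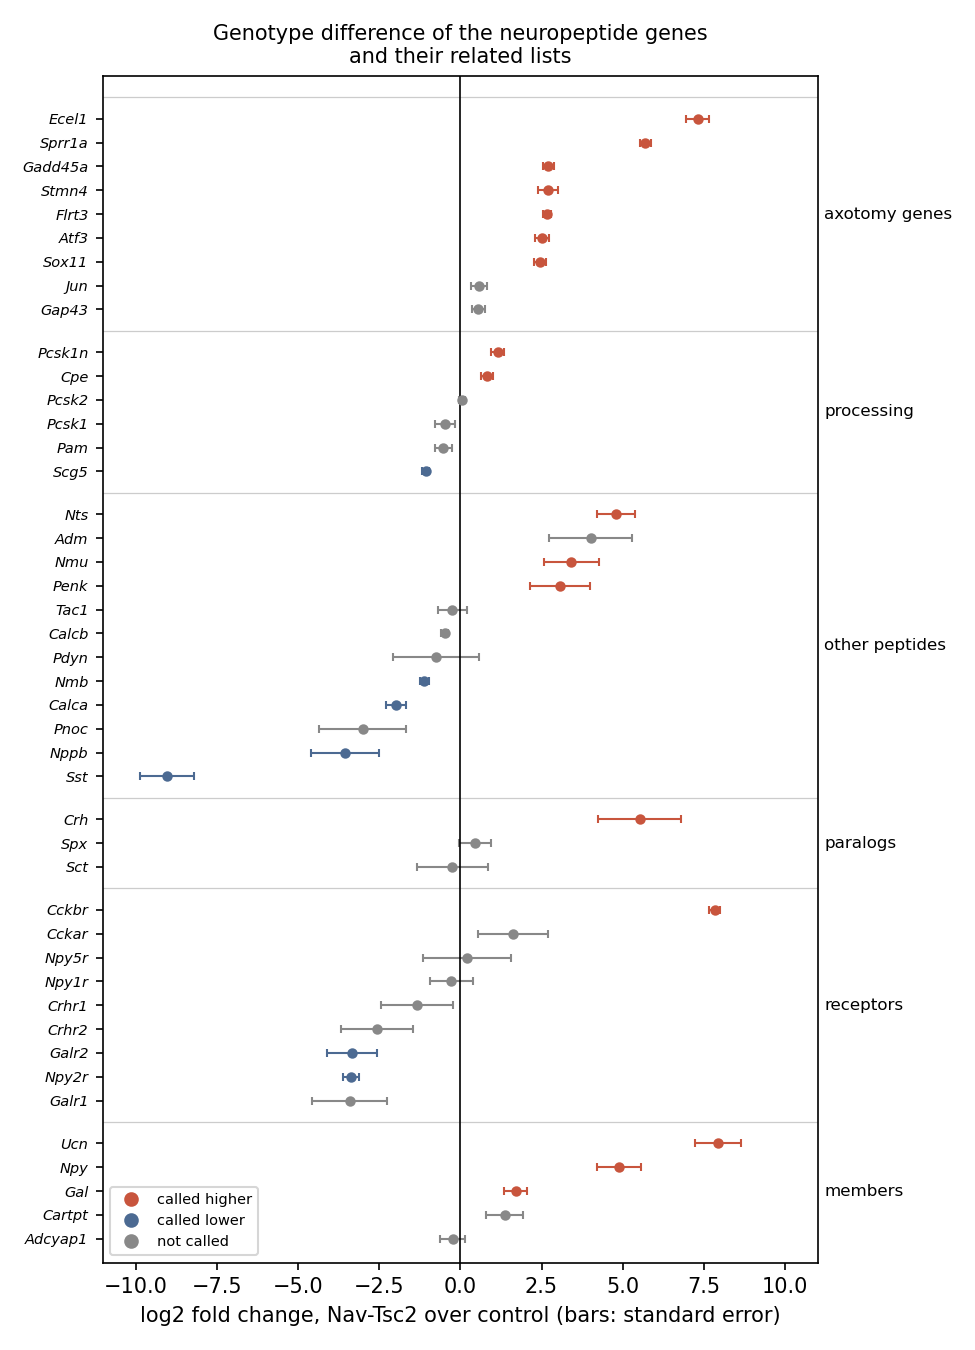
Log2 fold change (Nav-Tsc2 over control, n = 4 mice each) with its standard error for the tested neuropeptide genes and 5 related lists, with genes called higher in red, called lower in blue and not called in grey. Ucn (7.94) and Cckbr (7.83) had similar fold changes, and Sst (-9.04) lay farthest to the left.

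Markers of other cells also differed between the genotypes. Of 6 endothelial markers 3 were tested and rose, with a summed level of 0.326 to 1.85 CPM in control and 7.73 to 20.1 CPM in Nav-Tsc2 mice, although Cldn5 did not exceed 0.0617 CPM in any mouse. Of 6 macrophage markers 4 were tested and 1, Cx3cr1, rose, with sums of 0.669 to 3.76 and 7.76 to 17.4 CPM. C1qa did not exceed 0.0846 CPM in any mouse. The endothelial markers Flt1 and Ly6c1 and Cx3cr1 were at most 0.0602 CPM in control mice, under the filter's cutoff of 0.180 CPM. They entered the fit only through the Nav-Tsc2 mice and could hardly have been called lower. Among markers not tested, Pecam1 and Ptprc had lower means in Nav-Tsc2 neurons (0.315 against 0.422 and 0.0129 against 0.203 CPM). Cldn5, Cdh5 and C1qa had higher means there. Of 9 glial markers 1 fell and 0 rose, with sums of 1478 to 1699 and 505 to 822 CPM, and the gene that fell was S100b. Of 5 fibroblast markers and 6 markers of myelinated neurons none was called, with sums of 68.2 to 235 and 112 to 193 CPM for fibroblasts and 1212 to 1833 and 965 to 1528 CPM for myelinated neurons. At an unadjusted edgeR p under 0.05 there were 0 fibroblast markers and 1 myelinated neuron marker, and DESeq2 called 0 and 1. The part of these cells in the peptide levels was not tested.

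Sex was not used to choose the members, so it was tested with genotype in the model. Males and females are also replicates 1 and 2 and replicates 3 and 4, and sex cannot be told apart from anything else that those numbers share. Over all genes 5 were called by sex (0.0291%), 4 of them (0.0233%) as higher in males, and no member was among them. Gal had the smallest p of the members. In both genotypes both males lay above both females, with means of 526 against 257 CPM in control and 1634 against 910 CPM in Nav-Tsc2 mice. The log2 difference, female minus male, was -0.94 (SE 0.21), with an edgeR p of 0.00168 before and 0.590 after adjustment over all genes. Without 1 mouse at a time it ranged from -1.11 to -0.66. DESeq2 gave an adjusted p of 0.00653 for Gal and 0.00350 for Calca, in a fit that called 132 genes by sex. Male-higher values were not particular to Gal. The log2 difference was -0.81 for Calca (edgeR p = 0.000865, adjusted 0.493) and -1.18 for Tac1 (edgeR p = 0.00216, adjusted 0.608). It had the opposite sign for Nts (0.80) and Nppb (1.16), and edgeR called none of these.

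None of the other members passed for sex in this fit, with log2 differences (female minus male) of -1.05 for Cartpt, -0.70 for Adcyap1, -0.48 for Ucn and 0.14 for Npy and edgeR adjusted p values of 0.731, 0.740, 0.920 and 0.986. Whether the genotype difference itself depended on sex was tested as an interaction, which passed for 1 of 17178 genes (0.00582%). For the members the adjusted p values from edgeR lay between 0.563 for Npy and 0.947 for Gal. Without the low-count filter, in a fit that passed 618 genes, Ucn passed (interaction -1.93 on the log2 scale, edgeR adjusted p = 0.0238, against 0.739 with the filter). With 2 mice per sex and genotype, the interaction of Gal was 0.19 with an SE of 0.43 on the log2 scale.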

How the data were processed

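RNA from sorted L4 DRG neurons was sequenced as 24 libraries, 3 per mouse from 4 control and 4 Nav-Tsc2 mice. The authors amplified the cDNA (SMARTer), aligned reads to mm10 with STAR, made counts per gene with HTSeq-count and deposited these counts without normalization. Versions, the annotation and the strand setting are not given in the sources used here. Rows that name no gene held 47.6% to 55.9% of the totals and were left out. The authors' table of DESeq2 fold changes and p-values was not used.

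Of 47643 identifiers, 47224 matched a symbol (GENCODE, GRCm38). Counts were summed per mouse, filtered with filterByExpr, scaled by TMM and fitted with edgeR 4.0.16 (quasi-likelihood, robust) in R 4.3.3, with Benjamini-Hochberg adjustment over 17178 genes. Genes were called at the limits of the study. The standard error was taken as log2 fold change over the root of F. DESeq2 1.42.0 and limma 3.58.1 served as alternatives. Scripts were tested on simulated data.

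The members, gene lists and tests were chosen with earlier results of these data known. The genes named were the members, Tsc2, up to 6 called genes per list by smallest p, listed receptors and processing genes with a mean of at least 10 CPM, and the 3 genes most like each member (Pearson's r over libraries, mouse means removed). Penk, Adm, Calcb, Tac1, Galr1, Ucn2, Ucn3, Crhr1, Crhr2, Adcyap1r1, Vipr1, Vipr2, Jun, Gap43 and the marker genes were named after their values were seen. Per the study's methods controls were littermates of Nav-Tsc2 mice, but the labels do not tie replicate numbers to litters, and p-values measure the spread between these mice. Promoters were RefSeq sequences (GRCm38.p6), and all 7 members matched. A marker gene is not reported here.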

Additional observations from a re-analysis of the deposited data

Results flagged for a closer look

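For the members, their related genes and Tsc2, 92 groups of 4 mice were examined. Of these, 8 held a mouse whose gap to its nearest neighbour exceeded Dixon's 95% limit. For normal values in independent groups chance gives about 4.6. The limit was applied to CPM and not to log values, and the groups share the same 8 mice, so 4.6 is only a rough guide. Control replicate 1 was the mouse in 4 of the 8 groups. Its Adcyap1 level was 196 CPM against 67.3 in the next mouse, its Npy1r level 162 CPM against 26.5, its Cck level 0.254 CPM against 0.0402, and its Nts level was low, 15.7 CPM against 83.8. In control replicate 4, Adm, the adrenomedullin gene, was at 0.181 CPM against 0.0189. In Nav-Tsc2 replicate 1, Penk, the proenkephalin gene, was at 1262 CPM against 288 in the next mouse. Nav-Tsc2 replicate 2 had 5.43 CPM of Crh against 0.926, and 72.6 CPM of Pcsk1n against 45.5.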

How the results depend on the processing

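The genotype fit was repeated with sex as a covariate, a replicate block, no filter, other scaling (DESeq2 size factors, upper quartile), DESeq2, equal weight for each library, a limma-voom model of single libraries that took mouse as random, and 1 mouse left out at a time. Members called higher numbered 2 to 3 and lower 0 throughout. With mouse as random, where 4 receptors and 1 relative were tested, 1 receptor and 2 other neuropeptides were lower, 0 relatives were higher, the receptors had a median of 2.10, and log2 fold changes turned for Adcyap1 (0.085), Npy1r (0.45) and Tac1 (0.022). Without 1 mouse at a time, 1 to 3 receptors were lower and 1 to 2 higher, 0 to 1 relatives higher, and 3 to 6 other neuropeptides lower and 1 to 3 higher. In those fits the log2 fold change changed sign for Adcyap1 (-0.49 to 0.35), Npy1r (-0.56 to 1.04), Tac1 (-0.48 to 0.28), Pdyn (-1.15 to 0.020), Pcsk2 (-0.0036 to 0.12), Npy5r (-0.20 to 0.79) and Sct (-0.82 to 0.42). Npy1r also turned with sex as a covariate (0.033). The cause was not tested, and none of these was called with all mice. By sex, 5 genes were called, 132 with DESeq2, 57 without the filter (54 of them inside it) and 5 to 6 without 1 mouse. The interaction gave 1 gene, 366 with DESeq2 and 618 without the filter. The log2 difference by sex ranged from -0.61 to 0.66 for Npy and -0.81 to 0.52 for Ucn without 1 mouse, and was -0.79 for Npy without genotype in the model. Spearman's rho shared 10 of the 15 genes most like a member.

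Across genes, which are not independent replicates, deviations of mice with the same replicate number correlated at 0.135, 0.139, 0.0751 and 0.142. Mice of the same sex with different numbers correlated at 0.0704 to 0.144, the highest being control replicate 1 with Nav-Tsc2 replicate 2. Mice of different sex correlated at -0.180 to -0.0766. Positive values thus went with shared sex and not only with a shared number, and the numbers were not taken to pair the mice. The main genotype fit had no term for sex. With the replicate block, 1104 genes were lower and 1291 higher, against 1382 and 1572 without it, 3 members were higher, Npy1r turned to 0.27, Nppb (adjusted p = 0.0916) and Penk (0.0505) lost their call, and Galr1 (0.0484) and Adm (0.0344) gained one.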
